A study of Rattus norvegicus with 10 samples.

Results

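The hepatocyte growth factor system is described here as 6 genes: Mst1, Mst1r, Hgf, Hgfac, Met and Hpn. They were taken by gene symbol from a table of 32883 genes, and each symbol matched 1 gene. Mst1 and Hgf encode related secreted growth factors that are made as inactive single chains. The proteases encoded by Hgfac and Hpn cut such chains into their active form. Met encodes the receptor for hepatocyte growth factor, and Mst1r (ENSRNOG00000032618) encodes the receptor for the Mst1 product, macrophage-stimulating protein. In liver, Hgf comes mainly from non-parenchymal cells and acts on hepatocytes through Met, a route known for its part in liver regeneration, while hepatocytes secrete the Mst1 product into blood.

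Liver RNA came from 10 male rats aged 5 weeks, of which 5 were Eisai hyperbilirubinemic rats (EHBR) and 5 were Sprague-Dawley (SD) rats. EHBR derive from SD stock and, by mutation, lack the canalicular pump Mrp2, the product of Abcc2, so conjugated bilirubin accumulates. The labels name no treatment, and they do not say whether samples came from separate litters or how the 2 colonies were bred. Loss of Mrp2 and any other difference between the colonies therefore cannot be told apart. Levels are in TPM, which scales transcripts per length to the same total in every sample.

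The 10 libraries held 13.8 to 19.6 M reads assigned to genes. Abcc2 was at 59.98 to 271 TPM across SD livers and at 10.1 to 17.6 TPM across EHBR livers, so no library went against its strain label. Hepatocyte markers summed to 123503 to 151853 TPM in SD and to 138371 to 159413 TPM in EHBR, and all 7 were detected. In both strains, libraries 4 and 5 differed from libraries 1 to 3 across many genes, a division on which the labels are silent. The members' strain differences are therefore also given within each set of libraries.

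The members were chosen with the strain contrast known. Their strain values are given as a description without a test. Of the 6 members, 5 reached 1 TPM in at least 5 libraries and entered the fit across 11083 genes. Mst1r did not, because it stayed under 1 TPM in every library.

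The Mst1 and Hgfac promoters are shown because these were the members whose strain ranges did not overlap in TPM. Each sequence is the 250 bases before the RefSeq gene start in the build GRCr8, 5′ to 3′ on the gene's strand. The Mst1 stretch is chr8:117647192-117647441 on the plus strand, and the Hgfac stretch is chr14:79938774-79939023 on the minus strand. Capitals mark matches to the motifs named in the next paragraph.
Mst1: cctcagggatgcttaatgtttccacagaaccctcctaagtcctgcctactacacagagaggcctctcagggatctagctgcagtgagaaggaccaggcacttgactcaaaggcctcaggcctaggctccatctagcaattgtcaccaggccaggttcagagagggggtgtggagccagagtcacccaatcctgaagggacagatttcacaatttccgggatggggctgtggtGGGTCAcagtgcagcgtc
Hgfac: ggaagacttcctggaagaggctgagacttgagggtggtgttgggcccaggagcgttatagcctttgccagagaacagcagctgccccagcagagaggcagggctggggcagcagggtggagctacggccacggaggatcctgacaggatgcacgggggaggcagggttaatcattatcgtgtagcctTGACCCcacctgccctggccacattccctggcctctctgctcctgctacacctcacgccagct

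Motifs were searched on both strands in these windows of all 6 members and of 33469 RefSeq promoters. The core hexamer bound by nuclear receptors such as Hnf4a, spelled AGGTCA or GGGTCA, lay in the windows of Mst1, Hgf and Hgfac, and in 23.9% of all promoters. In Mst1 it was GGGTCA on the gene's own strand, 18 to 13 bases before the start. In Hgfac the GGGTCA was on the opposite strand, printed as TGACCC, 63 to 58 bases before the start. The Hnf4 element CAAAGTCCA, the antioxidant response core TGACNNNGC and the E-box CACGTG lay in none of the 6 windows, and in 0.338%, 10.1% and 5.59% of all promoters. The searched motifs did not overlap each other in the printed windows. The Mst1 window held 2 CpG sites, against a median of 5 over all promoters. These matches describe letters in the reference and not binding, and the reference is not the sequence of either colony.

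Mst1, the ligand gene, (ENSRNOG00000019680) spans bases 116857684 to 116862423 of chromosome 8 (build rn6), plus strand. The SD livers held 119, 126, 115, 98.3 and 98.8 TPM, and the EHBR livers 6.17, 5.997, 6.37, 3.43 and 3.97 TPM. All 5 EHBR values lay far below all 5 SD values, and the lowest SD liver was 15.4 times the highest EHBR liver. The means were 111 ± 12.2 TPM in SD and 5.19 ± 1.38 TPM in EHBR (SD, n = 5 per strain), a ratio of 21.4. On the log2(TPM + 1) scale, EHBR minus SD was -4.21 (SE 0.16). Adding 1 TPM shrinks differences at low levels, so the EHBR side is drawn upward on this scale.

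Reads were not scarce on either side of this difference. Whole reads recovered from the deposited values were 2753 to 3375 per SD library and 85 to 169 per EHBR library for Mst1. The transcript was therefore still counted in every EHBR liver. In the ranking of 11083 genes by strain difference, Mst1 was number 11 from the lowest. By mean level it ranked 909 in SD and 7179 in EHBR. In FPKM, a second deposited unit that scales by each library's read total, the means were 73.0 ± 4.78 and 3.21 ± 0.772 (SD, n = 5 per strain). The spread was wider in EHBR relative to the level, with a coefficient of variation of 26.6% against 10.98% in SD. The TPM difference on the log2 scale was -4.07 among libraries 1 to 3 and -4.41 among libraries 4 and 5.

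**Figure D1:**
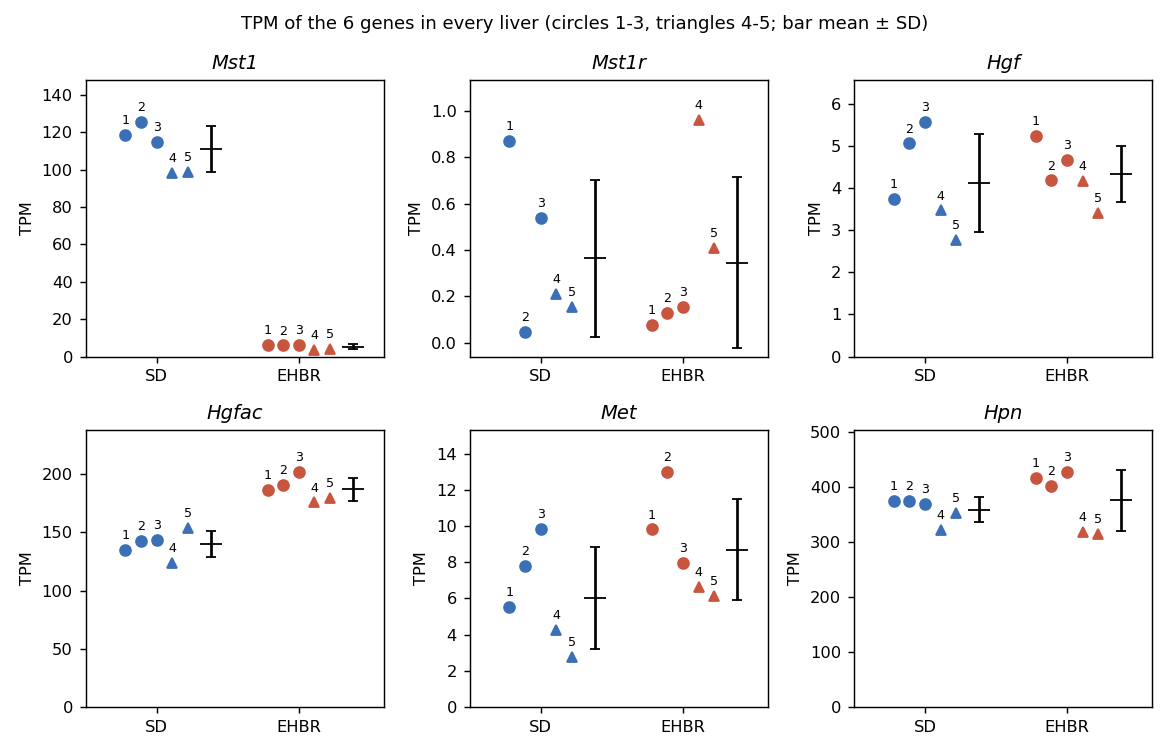
TPM (linear axis) of the 6 genes in each of the 5 SD (blue) and 5 EHBR (red) livers, numbered by sample; circles are libraries 1 to 3, triangles 4 and 5, and the bar is mean ± SD. Mst1 runs from 98.3 to 126 TPM in SD and from 3.43 to 6.37 TPM in EHBR, while Hgf, Met, Hpn and Mst1r overlap between strains.

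Mst1r (ENSRNOG00000032618) encodes the receptor tyrosine kinase Ron and lies on the same strand of chromosome 8, from 116686601 to 116700132, ending 157552 bases before Mst1. Its SD values were 0.872, 0.046, 0.539, 0.211 and 0.154 TPM, and its EHBR values 0.0752, 0.127, 0.156, 0.961 and 0.408 TPM. The strains overlapped fully, and the highest values were in SD library 1 and EHBR library 4. Reads recovered from upper-quartile FPKM, not from TPM, were 1 to 46 per SD library and 3 to 45 per EHBR library. The means were 0.364 ± 0.338 and 0.346 ± 0.367 TPM (SD, n = 5 per strain), a difference far smaller than the spread between libraries. On the log2(TPM + 1) scale, EHBR minus SD was -0.02 (SE 0.22). This SE comes from the plain spread within both strains, since Mst1r was not in the fit. The SEs of the other members come from limma. The difference of -0.02 joins opposite signs, -0.37 among libraries 1 to 3 and 0.49 among libraries 4 and 5.

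Hgf (ENSRNOG00000007027) encodes the ligand of Met and lies on chromosome 4 from 15433295 to 15505362, minus strand. The SD livers held 3.75, 5.06, 5.57, 3.47 and 2.77 TPM, and the EHBR livers 5.24, 4.18, 4.66, 4.17 and 3.41 TPM. The EHBR range lay inside the SD range. The means were 4.12 ± 1.16 and 4.33 ± 0.674 TPM, and the log2 difference was 0.08 (SE 0.17). It was -0.02 among libraries 1 to 3 and 0.22 among libraries 4 and 5. The sign of this small difference depends on scaling: it was -0.09 with each library centred on its median and 0.00 with FPKM.

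Met (ENSRNOG00000052745), the receptor of hepatocyte growth factor, lies on chromosome 4 from 44774741 to 44852665, plus strand, 29.3 Mb from Hgf. Its SD values were 5.52, 7.77, 9.85, 4.24 and 2.76 TPM, and its EHBR values 9.81, 13.0, 7.94, 6.61 and 6.15 TPM. The strains overlapped, although the lowest EHBR liver was above 3 of the SD livers. The means were 6.03 ± 2.82 and 8.70 ± 2.78 TPM, and the log2 difference of 0.52 (SE 0.28) compares with 0.15 for the median of all genes. It was 0.37 among libraries 1 to 3 and 0.73 among libraries 4 and 5.

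Hgfac (ENSRNOG00000009572) encodes hepatocyte growth factor activator, a plasma protease that cuts pro-Hgf and pro-macrophage-stimulating protein. The gene lies on chromosome 14 from 80966903 to 80973456, minus strand. The SD livers held 135, 143, 143, 124 and 154 TPM, and the EHBR livers 186, 191, 202, 176 and 180 TPM. In TPM every EHBR liver was above every SD liver, with means of 187 ± 10.2 and 140 ± 11.2 TPM. The ratio of means was 1.34, and the lowest EHBR liver was 1.14 times the highest SD liver. In FPKM the gap was narrow, with EHBR library 4 at 111.7 and SD library 5 at 109.4. Scaled by each library's upper-quartile count, the strains overlapped. SD library 5, with 4370 reads at a count of 413, then lay above EHBR library 1, with 3620 reads at 394. The log2 difference was 0.42 (SE 0.08), and 0.25 with each library centred on its median. Among libraries 1 to 3 it was 0.46, and among libraries 4 and 5 it was 0.36. Hgfac was thus higher in the strain with lower Mst1.

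Hpn (ENSRNOG00000021097) encodes hepsin, a membrane serine protease of hepatocytes that can activate both ligands. It lies on chromosome 1 from 89534106 to 89543967, minus strand, and was the most abundant member in all 10 livers. Its SD values were 374, 375, 369, 322 and 353 TPM, and its EHBR values 416, 401, 426, 318 and 314 TPM. EHBR libraries 1 to 3 lay above every SD liver and EHBR libraries 4 and 5 below every SD liver. The log2 difference of 0.05 (SE 0.11) was accordingly 0.15 among libraries 1 to 3 and -0.09 among libraries 4 and 5.

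Set side by side in TPM, 1 of the 6 members was lower in EHBR with no overlap between strains, 1 was higher with no overlap, and 4 overlapped. Of all 11083 genes, 2.02% were lower and 6.45% higher with no overlap, or 8.47% in either direction. Since the members were chosen on this contrast, nothing is read from that count. None of the 6 genes overlaps another annotated gene in the deposited coordinates.

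**Figure D2:**
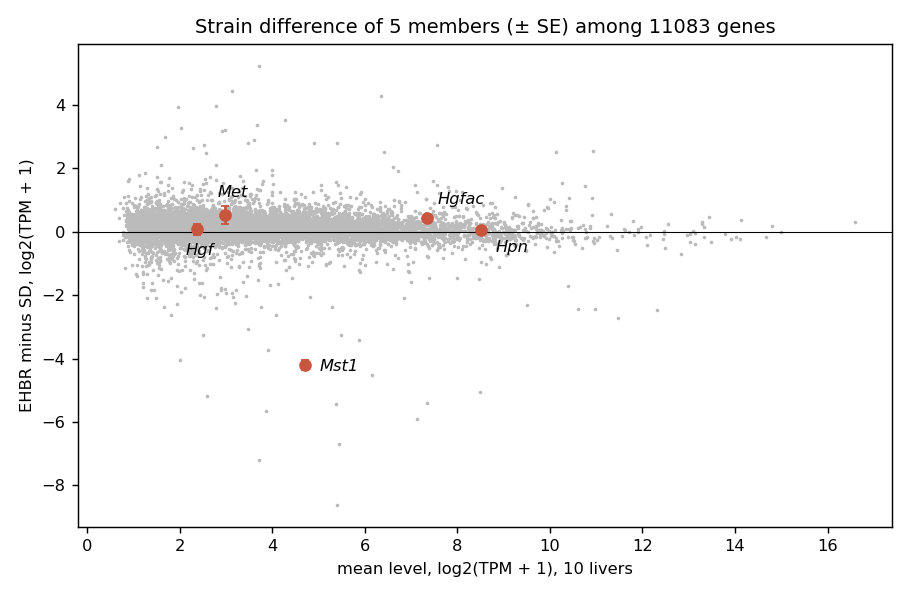
Mean level over 10 livers (x axis, log2(TPM + 1)) against the strain difference (y axis, EHBR minus SD, log2(TPM + 1)) for 11083 genes, with 5 members in red ± SE. Mst1 lies at -4.21, and Hgf, Hgfac, Met and Hpn lie between 0.05 and 0.52, within the bulk of genes.

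The order of the members by TPM differed between strains. In SD it ran from Hpn (358 ± 22.4 TPM) to Hgfac, Mst1, Met, Hgf and Mst1r. In EHBR it ran from Hpn (375 ± 54.8 TPM) to Hgfac, Met, Mst1, Hgf and Mst1r. Hgfac and Mst1 were near neighbours in SD, where their ranges overlapped, although Hgfac was 1.14 to 1.56 times Mst1 within each liver. In EHBR that ratio was 30.2 to 51.2. Met and Hgf did not differ beyond their spread in SD, nor did Mst1 and Hgf in EHBR. The ranges of Met and Mst1 overlapped in EHBR, although Met was 1.25 to 2.16 times Mst1 within each liver. The Mst1 to Hgf ratio, which sets both ligand genes side by side, was 20.6 to 35.6 in SD livers and 0.824 to 1.43 in EHBR livers. Mst1 thus went from far above Hgf to about its level. The Met to Hgf ratio, receptor against its own ligand, was 1.40 ± 0.298 in SD and 2.01 ± 0.617 in EHBR, with overlapping ranges of 0.994 to 1.77 and 1.59 to 3.10. The Hpn to Hgfac ratio, which compares both proteases, was 2.29 to 2.77 in SD and 1.75 to 2.23 in EHBR, without overlap.

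Genes around Mst1 were next compared, because their position played no part in the choice of members. Within 100 kb of Mst1 the files list 11 other genes, of which 5 entered the fit. None of the 5 was called by limma (adjusted p from 0.474 up), 0 had an unadjusted p under 0.05, and voom on recovered reads called 0. Apeh, which encodes an acylpeptide hydrolase and ends 202 bases past Mst1 on the opposite strand, averaged 25.5 ± 1.29 TPM over SD livers and 26.6 ± 1.40 TPM over EHBR livers, with overlapping ranges. Its log2 difference was 0.06 (SE 0.08). Rnf123, a ubiquitin ligase gene 1136 bases before Mst1, had 10.3 ± 2.83 and 11.5 ± 2.23 TPM (log2 0.17, SE 0.19). Gmppb, which encodes a subunit of GDP-mannose pyrophosphorylase, lies 1525 bases before Mst1, overlaps Rnf123 and had 17.3 ± 3.61 and 15.6 ± 2.22 TPM (log2 -0.13, SE 0.15). Their values are uncertain, since it is not known whether overlapping reads were told apart by strand. Ip6k1, an inositol hexakisphosphate kinase gene, and Uba7, which encodes the activating enzyme for the ubiquitin-like protein Isg15, had log2 differences of 0.24 (SE 0.34) and 0.34 (SE 0.26). The other 6 genes, Inka1, Bsn and 4 with placeholder names, did not reach the level needed for the fit.

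Within 1 Mb on either side, 55 other genes entered the fit, and their median log2 difference was 0.16 against 0.15 for all genes. Of these, 2 were higher in EHBR by limma and 0 lower, with 12 at an unadjusted p under 0.05. Of all 11083 genes, 3.82% were called higher, 1.63% lower and 5.45% in either direction, and 20.9% had an unadjusted p under 0.05. Nicn1 and Uqcrc1 were the called pair, named after their values were seen, at 0.42 (SE 0.10, adjusted p = 0.0389, limma) and 0.38 (SE 0.10, adjusted p = 0.0478, limma). The lowest of the 55 was Tma7 at -1.65, with a wide SE of 1.11.

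**Figure D3:**
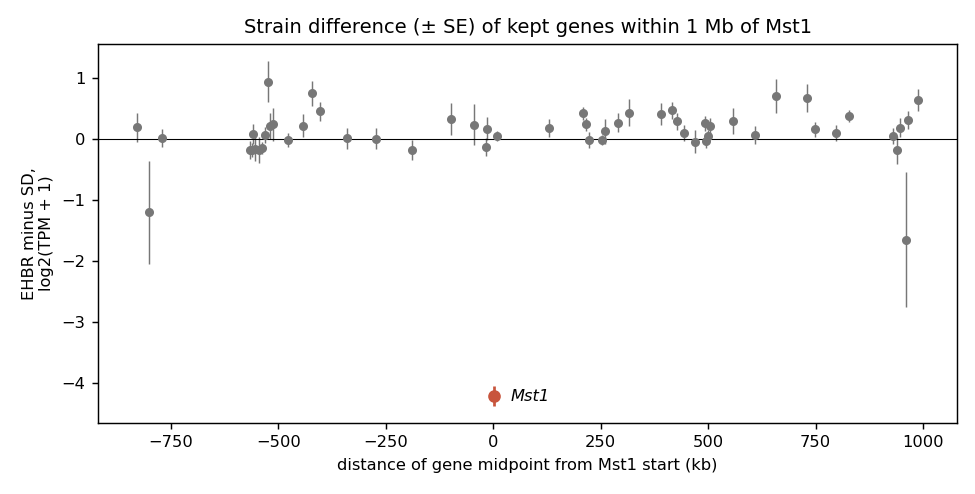
Strain difference (y axis, EHBR minus SD, log2(TPM + 1), ± SE) of the genes in the fit by distance from the Mst1 start in kb (x axis). Mst1 lies at -4.21 and the 55 others between -1.65 and 0.94.

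Other genes of the pathway came from 8 lists of 120 symbols, which hold none of the 6 members. Of these symbols 118 matched and 99 entered the fit. Higher in EHBR were 2 (Akt1 and Kdr), lower were 0, and 97 did not pass limma at an adjusted p of 0.05. At an unadjusted p under 0.05 there were 14 of 99, or 14.1%, against 20.9% of all genes. Voom on recovered reads called 4 higher (Akt1, Kdr, Egr1 and Plxnb1) and 1 lower (Igf1). The called share of the lists was 2.02%, under the 5.45% of all genes, and their median log2 difference was 0.19 against 0.15. With a term in the model for libraries 1 to 3 against 4 and 5, 13 of 99 were higher and 3 lower. Of all 11083 genes, 1506 were higher and 372 lower. As shares, the lists were no larger than all genes in either direction. The division behind the term was seen in these same data, so calls with it, here and below, are descriptions. The 13 were Akt1, Akt2, Map2k1, Nras, Stat3, Kdr, Flt1, Il6r, Klkb1, Plau, Egr1, Plxnb1 and Ptprj, and the 3 were Ccnd1, Plat and Igf1.

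The activating proteases, which cut pro-Hgf, pro-macrophage-stimulating protein or pro-Hgfac, held 8 genes in the fit, with a median log2 difference of 0.10. Limma and voom called 0, with 3 at an unadjusted p under 0.05. The most abundant was F2, the prothrombin gene, at 1491 ± 125 TPM in SD and 1622 ± 106 TPM in EHBR (log2 0.12, SE 0.09, adjusted p = 0.458, limma). The 3 at an unadjusted p under 0.05 were Klkb1, Plau and Plat. Klkb1 encodes plasma kallikrein and had 146 ± 28.9 and 201 ± 7.32 TPM (log2 0.48, adjusted p = 0.0514, limma). Plau, the urokinase gene, had 2.11 ± 0.955 and 4.23 ± 1.17 TPM, and Plat, tissue plasminogen activator, 2.19 ± 0.731 and 1.09 ± 0.267 TPM. Their adjusted p-values were 0.0782 and 0.0669 (limma). With the term for the libraries, Klkb1 and Plau passed as higher (adjusted p = 0.00934 and 0.0314) and Plat as lower (adjusted p = 0.0268). Plat also passed with upper-quartile FPKM, quantile normalization and median centring (adjusted p = 0.0473, 0.0183 and 0.0255, limma). Klkb1 also passed with a replicate block for the sample numbers and among genes averaging 5 TPM or more (adjusted p = 0.0438 and 0.0458, limma). Some fits on fewer libraries called these genes too.

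Of the protease inhibitors 5 were in the fit, with a median of 0.04, and neither limma nor voom called any (0 at an unadjusted p under 0.05). Serpinc1, the antithrombin gene and the most abundant, had 954 ± 50.1 and 1022 ± 56.3 TPM (log2 0.10, SE 0.08, adjusted p = 0.49, limma). Spint2, a Kunitz inhibitor of Hgfac and hepsin, had 161 ± 14.7 and 150 ± 10.5 TPM. Spint1, the related inhibitor, stayed under the level for the fit.

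Among co-receptors and receptor-processing enzymes, 11 were in the fit, with a median log2 difference of 0.21. Limma called 0, with 1 at an unadjusted p under 0.05, and voom called 1 higher, the semaphorin receptor gene Plxnb1. Sdc2, a heparan sulfate proteoglycan gene and the most abundant, had 316 ± 40.9 and 340 ± 15.7 TPM (log2 0.12, SE 0.10, adjusted p = 0.514, limma). Furin, whose product processes the Met precursor, had 113 ± 27.0 and 102 ± 14.6 TPM.

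Of 25 adaptors and kinases in the fit, 1 was higher and 0 lower by limma and by voom. The median log2 difference was 0.28, and 4 had an unadjusted p under 0.05. Akt1, a kinase downstream of Met and of many other receptors, stood at 38.7, 39.5, 42.6, 29.2 and 31.96 TPM in SD and 54.6, 55.1, 53.5, 53.0 and 43.1 TPM in EHBR. The ranges did not overlap, but EHBR library 5 was close to SD library 3. The log2 difference of Akt1 was 0.51 (SE 0.12, adjusted p = 0.0325, limma). That call was lost without SD library 1, 4 or 5 or EHBR library 1, 2, 3 or 4 (adjusted p 0.0542 to 0.0957, limma), and among libraries 4 and 5 alone (adjusted p = 0.0689, limma). The other 24 did not pass with strain as the only factor. With the term for the libraries, 5 of the list were higher, Akt1, Akt2, Map2k1, Nras and Stat3. Of the 24, Gab1, the docking protein of Met, had 2.23 ± 0.904 and 3.06 ± 0.865 TPM, and Stat3 18.9 ± 5.78 and 28.8 ± 4.99 TPM (adjusted p = 0.357 and 0.115, limma). Stat3 passed with the term (adjusted p = 0.022, limma) and with a replicate block for the sample numbers (adjusted p = 0.0482, limma).

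Negative regulators of receptor signalling had 14 genes in the fit and a median log2 difference of 0.19, with 0 called by limma or voom and 1 at an unadjusted p under 0.05. Errfi1, an inhibitor of the EGF receptor and the most abundant, had 335 ± 156 and 419 ± 60.02 TPM (log2 0.44, SE 0.28, adjusted p = 0.383, limma). Among libraries 4 and 5 alone it passed at 0.91 (adjusted p = 0.0273, limma), against 0.13 among libraries 1 to 3. Dusp6, an ERK phosphatase gene, had 9.45 ± 5.39 and 10.3 ± 4.68 TPM.

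Early response genes, which Met signalling among others can induce, had 10 in the fit and a median log2 difference of 0.10. Limma called 0, with 1 at an unadjusted p under 0.05, and voom called 1 higher, Egr1. Ccnd1, the cyclin D1 gene and the most abundant, held 49.4, 67.6, 47.1, 12.01 and 11.2 TPM in SD and 22.01, 18.98, 16.2, 7.47 and 7.17 TPM in EHBR. Every EHBR liver was lower within each set of libraries, while the strains overlapped as a whole. The log2 difference was -1.12 (SE 0.52, adjusted p = 0.246, limma). With the term for the libraries, drawn from a division seen in these same data, that difference passed (adjusted p = 0.00238, limma).

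Other growth factor signals of hepatocytes had 14 genes in the fit, of which 1 was higher and 0 lower. Their median log2 difference was 0.18, and 3 had an unadjusted p under 0.05. Voom called Kdr higher and Igf1, the insulin-like growth factor gene, lower. Kdr, the main receptor of vascular endothelial growth factor, stood at 6.68, 8.26, 9.49, 8.86 and 7.56 TPM in SD and 12.2, 15.3, 14.5, 13.3 and 11.8 TPM in EHBR. Every EHBR liver was above every SD liver, and the log2 difference was 0.66 (SE 0.12, adjusted p = 0.00916, limma). The call was lost with upper-quartile FPKM, quantile normalization or median centring (adjusted p = 0.0534, 0.0601 and 0.0755, limma) and among libraries 4 and 5 alone (adjusted p = 0.0899, limma). Kdr is also a marker of sinusoidal endothelial cells. The 8 matched markers of those cells summed to 69.1 to 90.1 TPM in SD and 98.8 to 131 TPM in EHBR, and 3 of them, Kdr included, were higher by limma. More cells of a type and more RNA per cell cannot be told apart in whole liver. Their part in the Kdr difference was not tested.

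The 12 liver transcription factors were all in the fit at a median log2 difference of 0.15, and neither limma nor voom called any, with 1 at an unadjusted p under 0.05. Cebpa, the most abundant, had 206 ± 60.4 and 225 ± 22.5 TPM (log2 0.18, SE 0.19, adjusted p = 0.592, limma). Hnf4a, a nuclear receptor of hepatocytes, had 145 ± 55.4 and 160 ± 32.6 TPM, with overlapping strains. Among libraries 4 and 5 alone, Nr1h4 and Onecut1 passed at 0.92 and 1.81 (adjusted p = 0.049 and 0.0404, limma). Their differences among libraries 1 to 3 were 0.17 and -1.02. In the fit on libraries 4 and 5, 460 of 11083 genes were higher and 112 lower.

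**Figure D4:**
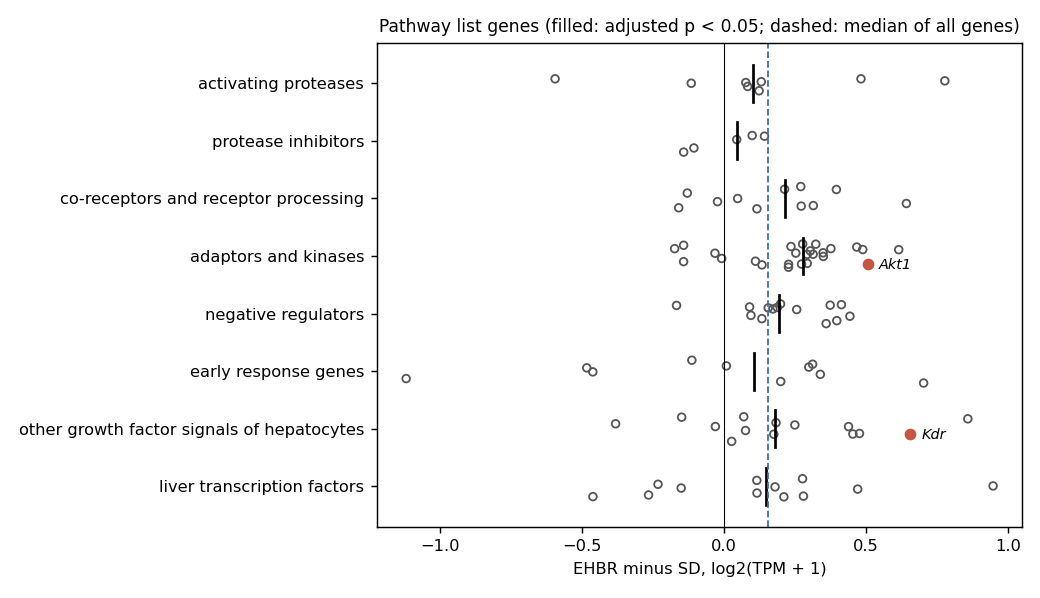
Strain difference (x axis, EHBR minus SD, log2(TPM + 1)) of the 99 pathway list genes in the fit, by list; filled points passed limma at an adjusted p of 0.05, black bars are list medians and the dashed line is the median of all genes at 0.15. Akt1 at 0.51 and Kdr at 0.66 are the filled points.

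Cells that make or receive these signals were checked by their markers. The 11 stellate cell and fibroblast markers, from cells known as a main source of Hgf in liver, summed to 231 to 382 TPM in SD and 292 to 346 TPM in EHBR, and 0 were called by limma. The 9 matched Kupffer cell and macrophage markers, from cells that can carry Mst1r, summed to 410 to 500 TPM in SD and 413 to 767 TPM in EHBR, with 0 called. Hepatocyte markers, from the cells that make Mst1, Hgfac and Hpn, overlapped between strains in their sum. Asgr1 was the 1 of 7 called, as lower. Cholangiocyte markers summed to 15.3 to 17.5 TPM in SD and 12.3 to 13.9 TPM in EHBR, with none at 0 in every liver. Epcam made up most of that sum, with means of 13.0 TPM in SD and 9.90 TPM in EHBR. Krt19 and Sox9, both low, had higher means in EHBR. Of the 6 cholangiocyte markers, 2 were in the fit and 0 were called by limma. Sinusoidal endothelial markers, given above with Kdr, summed to 69.1 to 90.1 TPM in SD and 98.8 to 131 TPM in EHBR, without overlap. Of the 8 matched, 3 were higher by limma. The part of these cell types in the members' values was not tested.

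Variation within each strain followed the division of the libraries. Mst1, Hgf, Met and Hpn, 4 of the 5 members in the fit, were lower in both libraries 4 and 5 than in any of libraries 1 to 3, in each strain. Of all genes, 25.5% did so and 5.49% did the reverse. For Mst1 the step was -0.28 on the log2 scale in SD and -0.61 in EHBR, and for Met -0.94 and -0.58. Hgfac showed it in EHBR, at -0.12, while its SD libraries overlapped, at -0.02. Mst1r, which was too low for the fit, had the reverse in EHBR, where libraries 4 and 5 were above libraries 1 to 3 by 0.57, and overlapped in SD, at -0.29. No test was made of this division, since it was seen in the data.

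**Figure D5:**
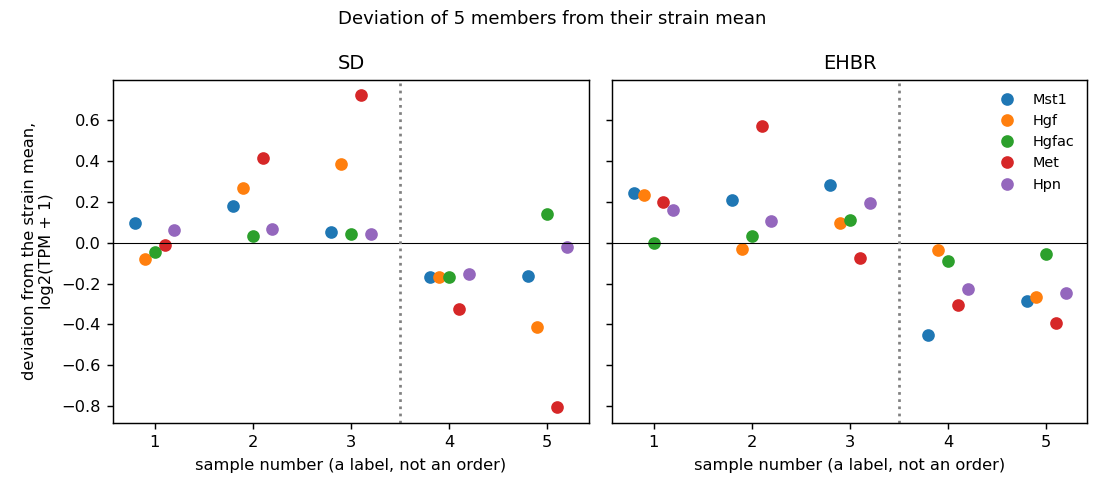
Deviation of 5 members from their strain mean (y axis, log2(TPM + 1)) in each library (x axis, sample number), for SD (left) and EHBR (right); the dotted line parts libraries 1 to 3 from 4 and 5. Mst1, Hgf, Met and Hpn lie below 0 in libraries 4 and 5 of both strains.

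The genes most like Mst1 were sought over the 10 livers after the strain mean was taken out. Candidates were the 6580 other genes that averaged 5 TPM or more and had no placeholder name. Pearson's r with Mst1 was 0.98 for Cdo1, which encodes cysteine dioxygenase, and 0.97 for Zdhhc16, Abhd14b, Pim3 and Tmem250. None of these had a strain difference near that of Mst1: their log2 differences ran from -0.15 for Abhd14b to 0.31 for Zdhhc16. Within the members, r with Mst1 was 0.96 for Hpn, 0.64 for Met, 0.58 for Hgf and 0.48 for Hgfac. These values are descriptions, since all points share libraries and the division between them.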

How the data were processed

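Libraries of poly(A) RNA from 10 livers were made with a strand-specific kit, per the labels' protocols. Tools in the submitters' processing notes are HISAT2 2.1.0, featureCounts 1.6.3, FastQC 0.11.7 and Trimmomatic 0.38, with rn6 as the build. Their settings, strand included, are not given in the sources. The authors deposited TPM, FPKM and upper-quartile FPKM values, the last a coverage-like signal scaled by each library's upper-quartile count. Groups came from sample titles. The titles number the rats of each strain, and no label says more on how samples relate, so p-values reflect only the spread among these samples.

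The fit was limma 3.58.1 (R 4.3.3, trend option) on log2(TPM + 1), with strain as its 1 factor, for genes that reached 1 TPM in 5 or more samples. Tests were two-sided, with Benjamini-Hochberg adjustment over those genes, and the script was tested on simulated data. Whole reads were recovered from upper-quartile FPKM within 0.002 reads, with each length chosen so that this held. They gave depth and a fit with limma's voom, scaled by upper quartiles, an alternative chosen after seeing the files. Alternatives were other units, pseudocounts, filters and scalings, a replicate block, a term for the libraries, each set of libraries alone and leaving out each sample.

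Members and lists were chosen with earlier results of these data known. Named beside the members were up to 3 called genes per list, or the most abundant where none was called, the genes within 100 kb of Mst1 (4 with placeholder names were only counted), and the 5 most like it. Others named were chosen after their values were seen. Promoters are from RefSeq (GRCr8), and all 6 members matched. Protein sequences were not used here.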

Additional observations from a re-analysis of the deposited data

Results flagged for a closer look

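Akt1 in EHBR sample 5, at 43.1 TPM, lay far below the other EHBR samples. Its gap to the nearest of them was 0.823 of the range of the group, above the critical value of 0.71 for 5 samples. It was the 1 flag in 28 groups checked, and chance flags about 1 group in 20.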

How the results depend on the processing

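The numbers 1 to 5 are shared by both strains, but no label states a pairing, so the main fit had no block for them. Deviations of same-numbered samples correlated at 0.07 to 0.29, and 3 of 5 SD samples correlated best with their own number. All SD and EHBR pairs within the same set of libraries, 1 to 3 or 4 and 5, correlated at 0.05 to 0.40. Pairs from different sets were at -0.37 to -0.09. Same-numbered pairs thus lay within the range of their set. Whether the numbers mark pairs is not known. With the replicate block, 639 genes were higher in EHBR, against 423 without it, and 5 list genes were higher and 1 lower. With the term for libraries 1 to 3 against 4 and 5, a division seen in these data, 1506 of 11083 genes were higher and 372 lower. Of the 99 list genes in the fit, 13 were higher and 3 lower, no larger a share. Higher genes numbered 276 with FPKM, 209 with upper-quartile FPKM, 193 after median centring and 251 with voom. Lower genes numbered 290 after quantile normalization and 112 among samples 4 and 5, against 181. The share of calls that were higher was 70.0% with TPM, 42.0% after median centring, 44.8% with upper-quartile FPKM, 52.0% after quantile normalization, 53.3% with voom, 57.5% with FPKM, 80.2% with the term and 80.4% among samples 4 and 5. List genes higher and lower were 1 and 2 with upper-quartile FPKM, 1 and 1 after quantile normalization, 1 and 2 after median centring and 4 and 1 with voom. Among samples 1 to 3 there was 1 lower, and among samples 4 and 5 there were 7 higher. Leaving out each sample gave 243 to 439 higher genes (276, 243 and 269 without EHBR sample 1, 2 or 3), 135 to 179 lower genes, 1 to 5 higher list genes and 0 to 1 lower. The higher list genes were 5, with 1 lower, without SD sample 3, and 1 without SD sample 4 or 5 or EHBR sample 1, 2, 3 or 4.

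Mst1 kept its direction in all 23 alternatives. Its log2 difference was -3.52 with a pseudocount of 5 and -4.58 with voom, and -4.09 to -4.28 when each sample was left out. Hgfac was at 0.32 with FPKM, 0.25 with upper-quartile FPKM, 0.25 after median centring and 0.27 with voom, and Hpn at -0.11 after median centring. F2, Serpinc1 and Sdc2, none of them called, changed sign with upper-quartile FPKM (-0.038, -0.063 and -0.049), after median centring (-0.046, -0.071 and -0.054) and with voom (-0.019, -0.043 and -0.029). Cebpa, also not called, was at -0.042 among samples 1 to 3. The cause of these shifts was not tested, except that centring moved the median of all genes from 0.15 to -0.02. Mst1r was too low for every fit with a filter, and Hgf for the fit limited to genes averaging 5 TPM or more. Mst1r had 1 to 46 recovered reads per library.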

Other observations

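Some genes on the marker lists that belong to none of the members' lists differed between strains; they are named after their values were seen. Cela1, which encodes a chymotrypsin-like elastase, fell, from 52.6 ± 9.32 TPM over the 5 SD livers to 25.9 ± 4.08 TPM over the 5 EHBR livers (log2 -0.99, adjusted p = 0.00259, limma), while the acinar genes Prss1 and Ctrb1 were listed at 0 in every liver. Asgr1, a subunit of the asialoglycoprotein receptor of hepatocytes, fell from 544 ± 21.2 to 434 ± 6.72 TPM (log2 -0.33, adjusted p = 0.018, limma). The endothelial scavenger receptor genes Stab1 and Stab2 rose from 1.04 ± 0.338 to 2.37 ± 0.494 TPM and from 2.38 ± 0.646 to 5.34 ± 0.70 TPM (adjusted p = 0.0182 and 0.00673, limma).

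The deposited TPM and FPKM did not keep 1 ratio across the members within a library. In SD sample 1 the ratio of TPM to FPKM ran from 1.39 for Mst1r to 1.55 for Mst1. Deposited TPM was thus not FPKM times 1 factor shared by all members. Mst1r and Hgf did share a ratio in SD sample 5 (1.38) and in EHBR sample 5 (1.55). For Mst1r, TPM was 3.08 times FPKM in SD sample 2, the library with 1 recovered Mst1r read. In the 9 others it was 1.38 to 1.64 times. The cause was not tested.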
